A study of Homo sapiens with 3 samples.

Results

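The chromatin remodeller genes of the SWI/SNF, CHD, ISWI and INO80 families were examined in OCI-Ly10 cells, an established human line of diffuse large B cell lymphoma, after 6 h with MZ1. MZ1 is a bivalent molecule that brings BET bromodomain proteins to the VHL ubiquitin ligase for degradation, and the sources used here do not give its dose. The 41 genes were taken from a list of subunit symbols, bromodomain subunits BRD7 and BRD9 included, matched through GENCODE release 29 (GRCh38), and all 41 were among the 15808 genes of the count table. RNA was sequenced from 3 libraries that share this line, treatment and time. Untreated cells were not analysed here, so what follows are levels in MZ1-treated cells and differences between libraries, without an estimate of what MZ1 changed. Separate cultures are not stated for the libraries, and p-values between them therefore measure a spread that may be technical.

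Remodellers use the energy of ATP to slide or evict nucleosomes or to exchange their histones. SWI/SNF (BAF) complexes carry SMARCA4 or SMARCA2 as the motor and come in a canonical form with ARID1A or ARID1B, a PBAF form with ARID2 and PBRM1 and a non-canonical form with BRD9. CHD4 and CHD3 drive NuRD, which pairs remodelling with histone deacetylation, and SMARCA5 drives most ISWI complexes, which space nucleosomes. INO80, SRCAP and EP400 belong to a family linked to the exchange of histone H2A variants in nucleosomes. SWI/SNF subunit genes, ARID1A among them, are recurrently mutated in lymphoma.

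The libraries held 5474462, 1441246 and 1314812 counts in replicates 1, 2 and 3, and members took 0.451%, 0.664% and 0.532% of them (exact Clopper-Pearson 95% intervals 0.445 to 0.456%, 0.650 to 0.677% and 0.519 to 0.544%). Levels are CPM, depth-normalised counts over TMM-scaled library sizes, and 1 count is worth 0.200, 0.629 and 0.767 CPM. Of the 7 B cell markers, 7 reached 1 CPM in every library, and MS4A1, which encodes CD20, had 848, 625 and 739 CPM. MS4A1 was the most even of the 7. The least even was CD22, at 53.4, 10.1 and 5.37 CPM, and CD79A had 437, 353 and 903 CPM. Of 5 T cell markers the table held CD2, with 7, 0 and 0 counts, and of 5 myeloid markers it held 3. The summed level of the myeloid markers found in the table was 31.0, 24.5 and 23.8 CPM, most of it from ITGAM at 22.8, 16.3 and 19.2 CPM. Of 5 fibroblast and epithelial markers the table held 3, summing to 51.6, 19.5 and 36.1 CPM, led by the keratin gene KRT8 at 45.8, 17.6 and 33.8 CPM. Their part in the results was not tested.

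Of the 41 members, 40 reached 1 CPM in all 3 libraries, against 68.0% of all genes in the table. Mean levels of these 40 ran from 11.8 ± 2.22 CPM for BCL7B to 715 ± 147 CPM for CHD4 (SD, n = 3), and 21 genes averaged at least 100 CPM. Only SMARCA2 stood apart, with 0, 1 and 0 counts. In bulk RNA, fewer cells that transcribe a gene and less RNA per cell cannot be told apart. The median over the members was 93, 108 and 97.4 CPM in replicates 1, 2 and 3, against 24, 20.1 and 22.2 CPM over the 10016 genes whose count averaged 10 or more. CPM grow with gene length, and the exons of the 40 genes were long (median 8524 bases after merging, against 5217 for all those genes). Per kb of merged exons the members' medians were 8.32, 9.43 and 9.56, against 4.79, 4.08 and 4.59.

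**Figure D1:**
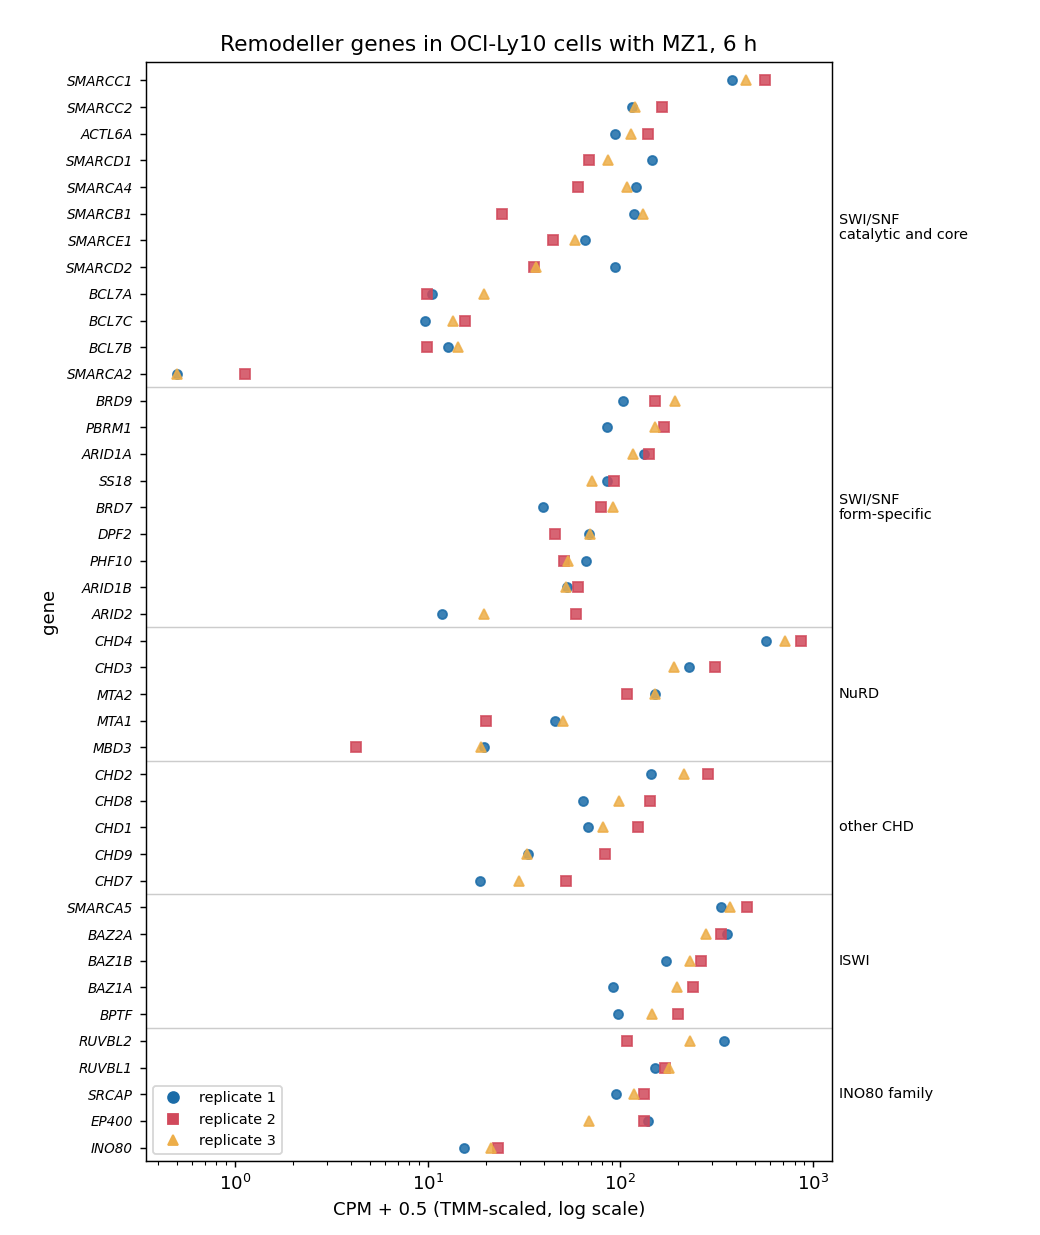
Level of each remodeller gene (CPM + 0.5, log scale) in the 3 MZ1-treated OCI-Ly10 libraries, 1 marker per library, genes ordered by mean within role groups. SMARCA2 lies at the bottom of the scale with 0, 1 and 0 counts, and the other 40 genes lie between 3.77 and 862 CPM.

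Reads of the SWI/SNF motor came almost wholly from SMARCA4. SMARCA4 (ENSG00000127616.16, chromosome 19, 10960825 to 11079426, plus strand) had 120.0, 59.7 and 108 CPM in replicates 1, 2 and 3, or 836 counts in all. SMARCA2, its paralogue and alternative ATPase (ENSG00000080503.18, chromosome 9, 1980290 to 2193624, plus strand), had a single count, in replicate 2, and its 3-count floor was 0.600, 1.89 and 2.30 CPM. Over the 3 libraries the ratio of counts was 836 (exact 95% interval 149.6 to 33059, counting error only), and both genes have merged exons of similar length, 15778 and 18595 bases. The ISWI motor pair was uneven too. SMARCA5 had 2855 counts, and its paralogue SMARCA1, which belongs to the other ISWI subunits, had 3, 0 and 0 (ratio 952, exact interval 325 to 4617). The SMARCA5 and SMARCA1 pair was chosen after its values were seen.

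Promoter windows of these 4 motor genes are shown because 2 gave many reads and 2 gave almost none. They run from 250 bases before to 50 bases after the most upstream start in RefSeq on GRCh38.p14, 5′ to 3′ on the gene's strand, with GC boxes (GGGCGG or its reverse complement CCGCCC) in capitals.
SMARCA4 (chr19:10960780-10961079, plus strand): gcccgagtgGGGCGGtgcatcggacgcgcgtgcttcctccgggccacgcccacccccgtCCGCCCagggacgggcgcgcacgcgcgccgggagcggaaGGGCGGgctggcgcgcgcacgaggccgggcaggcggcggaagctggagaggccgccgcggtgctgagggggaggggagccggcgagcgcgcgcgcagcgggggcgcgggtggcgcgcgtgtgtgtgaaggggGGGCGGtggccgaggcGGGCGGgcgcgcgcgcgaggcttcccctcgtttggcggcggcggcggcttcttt
SMARCA2 (chr9:2015097-2015396, plus strand): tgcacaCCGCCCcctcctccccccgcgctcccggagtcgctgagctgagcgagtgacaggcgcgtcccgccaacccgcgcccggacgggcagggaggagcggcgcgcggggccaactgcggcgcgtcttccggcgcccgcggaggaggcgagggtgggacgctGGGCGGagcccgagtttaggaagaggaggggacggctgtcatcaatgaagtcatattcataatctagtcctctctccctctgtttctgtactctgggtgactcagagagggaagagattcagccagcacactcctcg
SMARCA5 (chr4:143513452-143513751, plus strand): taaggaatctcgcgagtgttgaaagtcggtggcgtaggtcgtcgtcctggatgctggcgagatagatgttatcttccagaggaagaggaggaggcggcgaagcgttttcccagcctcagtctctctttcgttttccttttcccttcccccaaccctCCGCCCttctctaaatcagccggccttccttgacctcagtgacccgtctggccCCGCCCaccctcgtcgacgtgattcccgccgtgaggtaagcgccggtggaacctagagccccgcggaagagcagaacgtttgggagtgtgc
SMARCA1 (chrX:129523441-129523740, minus strand): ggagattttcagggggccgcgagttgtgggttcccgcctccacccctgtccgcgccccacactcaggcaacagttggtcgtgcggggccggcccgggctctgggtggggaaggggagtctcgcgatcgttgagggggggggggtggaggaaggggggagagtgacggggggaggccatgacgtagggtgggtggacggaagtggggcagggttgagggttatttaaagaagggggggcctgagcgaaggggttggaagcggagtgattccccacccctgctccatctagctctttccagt

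The SMARCA4 window held 5 GC boxes and 55 CpG dinucleotides and the SMARCA5 window 2 and 25. The paralogues with few reads held such features too, in part: the SMARCA2 window held 2 GC boxes and 30 CpG, and the SMARCA1 window 0 and 17. Over all 35116 RefSeq windows the median was 14 CpG, and 45.0% held a GC box on either strand. None of the 4 windows held a CCAAT box (CCAAT, either strand, 34.6% of windows), an E-box (CACGTG, 7.26%) or a TATA box (TATAAA, either strand, 11.5%). RefSeq lists 2 windows for SMARCA4 and 4 for SMARCA2, and the others were not searched. A match of letters is a description and not a site of binding.

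Among the core SWI/SNF subunits the scaffold gene SMARCC1 was the highest. SMARCC1 (ENSG00000173473.9, chromosome 3, 47585272 to 47782106, minus strand) had 380.3, 565 and 448 CPM in replicates 1, 2 and 3, against 115, 165 and 118 CPM for its paralogue SMARCC2, the other scaffold. ACTL6A, an actin-related subunit, had 93.4, 139 and 113 CPM. These 3 genes were highest in replicate 2. SMARCB1, a core subunit that contacts the nucleosome and is lost in rhabdoid tumours, had 117, 23.9 and 130.4 CPM, so that replicate 2 held less than either other library. SMARCD1 and SMARCD2 are alternative forms of a core subunit. SMARCD1 had 146, 68.5 and 85.9 CPM and SMARCD2 93, 35.2 and 36.1 CPM, and both were highest in replicate 1. SMARCE1, which carries an HMG domain, had 65.4, 44.0 and 57.5 CPM. The BCL7 genes, which encode small accessory subunits and of which BCL7A was first found in a lymphoma translocation, were low throughout. BCL7A had 10.0, 9.43 and 19.2 CPM, BCL7B 12.2, 9.43 and 13.8 and BCL7C 9.20, 15.1 and 13 CPM, with replicate 3 highest for BCL7A and BCL7B.

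To ask whether libraries differed beyond counting noise, the 3 counts of each gene were set against equal expression with a chi-square test, adjusted by Benjamini-Hochberg over 10016 genes. The test compares these libraries and no condition. Of the 40 members tested, 32 passed at 0.05, against 67.2% of all genes. Deeper genes pass more often, and fitted on genes averaging 50 counts or more the test called 31 of 35 members (88.6%), against 81.1% of genes. Without replicate 1, 25 of 40 members passed (62.5%, against 33.8% of genes), without replicate 2, 18 (45.0%, against 45.2%), and without replicate 3, 30 (75.0%, against 56.2%). SMARCA2 was too low to test. In the core group 9 of 11 genes passed, among them SMARCC1 (adjusted p = 6.15e-21), SMARCB1 (2.26e-25), SMARCD2 (4.57e-18) and SMARCA4 (4.19e-09), while BCL7B (0.582) and BCL7C (0.147, but 0.0267 with column totals) did not. Without replicate 2 the calls of SMARCA4 (adjusted p = 0.381), SMARCB1 (0.325), SMARCC2 (0.810), ACTL6A (0.0904) and SMARCE1 (0.434) were lost, and without replicate 1 those of SMARCD1 (0.374), SMARCD2 (0.898), SMARCE1 (0.363) and BCL7A (0.108). BCL7A also lost its call without replicate 3 (0.880) and after thinning to equal depth (0.0826), and SMARCE1 with column totals (0.340) and after thinning (0.148).

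The subunits that define SWI/SNF forms were present for all 3 forms. Of the canonical form, the DNA-binding subunit gene ARID1A had 133, 141 and 116 CPM in replicates 1, 2 and 3 and its alternative ARID1B 52.6, 59.7 and 51.4 CPM. These 2 were among the most even members, and neither passed the test between libraries under TMM (adjusted p = 0.216 and 0.568). DPF2, a histone reader, had 68.0, 45.3 and 69.0 CPM, and SS18, the subunit fused in synovial sarcoma, 84.4, 91.8 and 70.6 CPM (adjusted p = 0.178 for SS18). In the PBAF form, PBRM1, which carries a row of bromodomains, had 84.8, 168 and 151 CPM, lowest in replicate 1. ARID2, the defining PBAF subunit, had 11.4, 58.5 and 19.2 CPM from 57, 93 and 25 counts, and was the most uneven form-specific gene (adjusted p = 5.34e-26). PHF10, a PBAF reader subunit, had 66.2, 50.3 and 52.9 CPM and did not pass (0.0542).

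The bromodomain subunits BRD7 and BRD9 lie outside the BET family, whose proteins MZ1 binds. BRD9, which defines the non-canonical form (ENSG00000028310.16, chromosome 5, 850291 to 892824, minus strand), had 103, 151 and 191 CPM, and BRD7, a PBAF subunit (ENSG00000166164.14, chromosome 16, 50313487 to 50368934, minus strand), had 39.0, 79.2 and 91.3 CPM. Both were lowest in replicate 1 and highest in replicate 3, and both passed the test (adjusted p = 1.34e-15 for BRD9 and 3.31e-15 for BRD7). Without replicate 1 neither did, at 0.133 and 0.685, nor did PBRM1 (0.145) and DPF2 (0.0642). Without replicate 2 the calls of ARID2 (0.0603) and DPF2 (0.929) were lost. In BRD7 42.4% of the merged exon bases lie across from opposite-strand exons, nearly all of ADCY7, which had 19.2, 7.54 and 8.44 CPM. In all, 5 of 9 form-specific genes passed, against 67.2% of all genes tested. With column totals ARID1A (0.00417), ARID1B (0.0437) and SS18 (0.00978) passed and DPF2 (0.159) did not, and after thinning to equal depth ARID1A did (0.00564) and DPF2 did not (0.114). ARID1A (0.0415) and SS18 (0.0419) passed without replicate 1, and PHF10 (0.0482) without replicate 3.

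NuRD genes included the highest member of all. CHD4, the NuRD motor (ENSG00000111642.13, chromosome 12, 6570082 to 6614524, minus strand), had 568, 862 and 716 CPM in replicates 1, 2 and 3, and its paralogue CHD3 227, 309 and 189 CPM. MTA2, a scaffold that holds the deacetylases, had 150.2, 108 and 150.4 CPM, and MTA1, another form of it, 45.4, 19.5 and 49.9 CPM. MBD3, the methyl-CpG-binding domain subunit, was low, at 19.2, 3.77 and 18.4 CPM from 96, 6 and 24 counts. CHD3 and CHD4 were highest in replicate 2, whereas MTA1, MTA2 and MBD3 were lowest there. All 5 passed the test (67.2% of all genes did), CHD4 with an adjusted p of 2.27e-36 and MBD3 with 2.21e-04. Without replicate 2 the calls of MTA1 (0.615), MTA2 (0.990) and MBD3 (0.899) were lost, and with column totals that of MTA2 (0.130). The exons of CHD4 overlap AC006064.2, an antisense gene with 1.20, 40.2 and 70.6 CPM, over 10.2% of their bases.

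The other CHD genes shared the library in which they were highest. CHD2, a motor linked to histone H3.3 deposition, had 144, 285 and 214 CPM in replicates 1, 2 and 3, and CHD1, which binds methylated histone H3 at active genes, 67.6, 123 and 80.5 CPM. Of the third subfamily, CHD8 had 63.2, 141 and 97.4 CPM, CHD9 32.6, 83.0 and 32.2 and CHD7, the gene of CHARGE syndrome, 18.2, 51.5 and 29.2 CPM. Replicate 2 held the highest value of all 5 (28.7% of all genes tested). It did so with size factors of DESeq2 (31.5% of all genes) and with column totals (38.5%) as well. All 5 passed the test (67.2% of all genes did), CHD2 with the smallest adjusted p (2.56e-29). Without replicate 2 the calls of CHD1 (0.195) and CHD9 (0.963) were lost.

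The 5 ISWI members were all abundant, whereas other ISWI subunits ranged down to SMARCA1, with 3, 0 and 0 counts. SMARCA5, the motor, had 330.5, 452 and 371 CPM in replicates 1, 2 and 3, and BAZ2A, its partner in the nucleolar NoRC complex, 357, 333 and 278 CPM. BAZ1B, of the WICH complex and a gene of the Williams syndrome region, had 172, 261 and 229 CPM. BAZ1A, of the ACF and CHRAC complexes, had 91.4, 237 and 196 CPM, and BPTF, the large reader subunit of NURF, 97, 198 and 145 CPM. BAZ1A, BAZ1B, BPTF and SMARCA5 were lowest in replicate 1, and BAZ2A was lowest in replicate 3. All 5 passed the test (67.2% of all genes did), BAZ1A with an adjusted p of 5.13e-48. Without replicate 2 SMARCA5 did not pass (0.0581), and without replicate 3 BAZ2A did not (0.230).

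In the INO80 family the shared AAA+ ATPases RUVBL1 and RUVBL2 exceeded the motors per kb of merged exons in each library, though not in CPM throughout. RUVBL2 (ENSG00000183207.11, chromosome 19, 48993448 to 49015995, plus strand) had 346, 108 and 229 CPM in replicates 1, 2 and 3, highest in replicate 1, and RUVBL1, its partner in the hexamer, 151, 170.3 and 177 CPM, with little spread (adjusted p = 0.0740). SRCAP, the motor that deposits H2A.Z, had 94.8, 131 and 117 CPM, and EP400, the motor of the TIP60-p400 complex, 139, 133 and 68.3 CPM, lowest in replicate 3. INO80 was the lowest of the group at 15.0, 22.6 and 20.7 CPM from 75, 36 and 27 counts and did not pass (0.114). RUVBL2 had the smallest adjusted p of the members, 1.35e-55. The call of SRCAP was lost without replicate 1 (0.177) and without replicate 2 (0.0560), and that of EP400 without replicate 3 (0.619). RUVBL1 passed with size factors of DESeq2 (0.0434), column totals (1.76e-05) and GC-adjusted sizes (3.97e-07). INO80 passed with column totals (0.0117) and GC-adjusted sizes (0.0155).

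Paralogues and alternative subunits were compared within each library as the log2 ratio of (CPM + 0.5) per kb of merged exons, over 18 pairs. With 3 libraries the exact sign-flip permutation test (two-sided) cannot give less than p = 0.25, which every pair had (0.25 after adjustment over the pairs), so none could pass 0.05. Every pair had 1 direction in all 3 libraries per kb of merged exons, and the mean ratio kept its sign with the length of the longest or of the APPRIS principal transcript (the main coding isoform). Single libraries differed in sign for DPF2 to PHF10 with the longest transcript (exact permutation p = 0.75) and, with the principal transcript, for RUVBL2 to RUVBL1 (0.75) and BCL7A to BCL7B (0.50). The size of several ratios depended on the length used, and the value for the principal transcript is given second below. ARID1A lay above ARID1B by 2.73 ± 0.08 (SD, n = 3), and by 1.13 with the principal transcript, and above ARID2 by 2.04 ± 1.12 and 2.45. The ARID1A to ARID1B ratio was steady between libraries, while that to ARID2 moved with ARID2. SMARCC1 lay above SMARCC2 by 1.97 ± 0.10 and 1.16, and BRD9 above BRD7 by 0.95 ± 0.24 and 2.44. SMARCD2 lay below SMARCD1, at -0.49 ± 0.30 and -0.52. SMARCA4 to SMARCA2, at 7.37 ± 1.22 and 7.16, depends on the pseudocount, since SMARCA2 had 1 count.

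In NuRD, CHD4 lay above CHD3 by 1.19 ± 0.31 (SD, n = 3) and 1.73 with the principal transcript, and MTA2 above MTA1 by 2.63 ± 0.46 and 1.82. Among the pairs compared of the remaining CHD genes, CHD2 and CHD1 were the closest. CHD2 lay above CHD1 by 0.53 ± 0.16 and 1.02, CHD8 above CHD7 by 1.34 ± 0.17 and 2.29, and CHD8 above CHD9 by 0.75 ± 0.43 and 1.92. BAZ1B and BAZ1A differed by 0.55 ± 0.42 and 0.40. SRCAP lay above INO80 by 1.57 ± 0.08 and 1.66, among the steadiest ratios, and EP400 above INO80 by 1.05 ± 0.74 and 1.47. RUVBL2 to RUVBL1 was 1.20 ± 0.92 per kb of merged exons but 0.11 with the principal transcript, a difference smaller than its spread. The small pairs were BCL7A to BCL7B at -0.83 ± 0.37 and -0.32, BCL7A to BCL7C at -0.58 ± 0.60 and -0.57, and DPF2 to PHF10 at -0.39 ± 0.27 and -0.61. With no length correction these 3 pairs changed sign, at 0.06, 0.00 and 0.09.

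**Figure D2:**
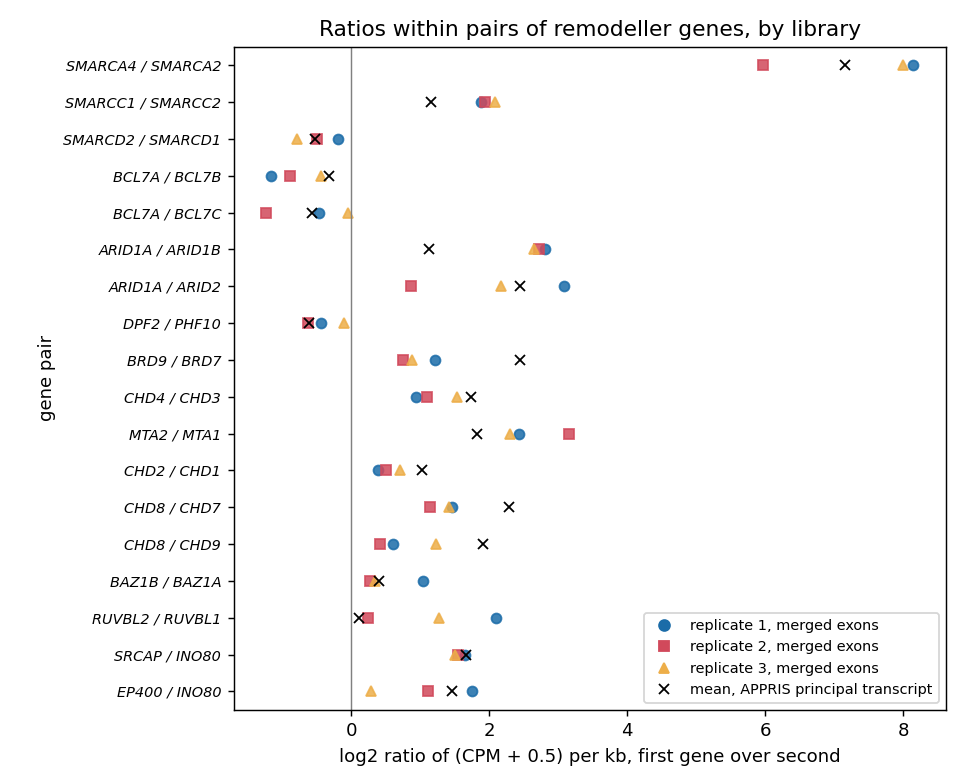
Log2 ratio of (CPM + 0.5) per kb of merged exons, first gene over second, for 18 pairs of remodeller genes, with 1 marker per library and a cross for the mean when the APPRIS principal transcript gives the length. The SMARCA4 to SMARCA2 ratio is the largest, at 8.15, 5.97 and 8.0 in replicates 1, 2 and 3, and the 3 ARID1A to ARID1B markers nearly coincide at 2.81, 2.72 and 2.65.

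Per kb of merged exons, the role groups ranked with ISWI (median 24.4, 30.8 and 25.5 CPM per kb in replicates 1, 2 and 3) and NuRD (23.2, 25.5 and 19.3) at the top. Form-specific SWI/SNF genes had 8.78, 9.09 and 9.56, the INO80 family 7.44, 9.61 and 8.53, the SWI/SNF core 7.35, 3.61 and 7.37, and the other CHD genes 3.02, 6.75 and 4.65. The values of ISWI and NuRD overlapped over libraries, with ISWI above NuRD in each library, and those of the form-specific genes and the INO80 family overlapped too. This order depended on the summary: with the principal transcript the log2 medians were 4.16 ± 0.19 for form-specific genes and 3.42 ± 0.09 for the INO80 family (SD, n = 3), and by the mean of log2 values they were 2.78 ± 0.24 and 3.50 ± 0.07. By that mean ISWI had 4.59 ± 0.34 and NuRD 3.67 ± 0.34. The highest single members by mean CPM per kb were RUVBL2 at 62.0 ± 32.4, SMARCC1 at 60.7 ± 12.2 and CHD4 at 56.3 ± 11.5 (SD, n = 3), which overlap in spread. SMARCA5 followed at 45.8 ± 7.38. At the low end above SMARCA2 were ARID1B at 1.22 ± 0.101, MBD3 at 1.76 ± 1.11 and CHD7 at 1.94 ± 1.00. Merged exons of ARID1B sum to 44677 bases against 7962 for its principal transcript, so its place among the lowest rests on that length.

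The members leaned toward replicate 2. Of the 40 tested, 22 had their highest value in replicate 2 (28.7% of all genes), 9 in replicate 1 (43.8%) and 9 in replicate 3 (27.4%). Counting called genes alone, 17 members were highest in replicate 2 (18.0% of all genes tested), 8 in replicate 1 (32.1%) and 7 in replicate 3 (17.0%). Lowest values fell in replicate 1 for 20 members (32.1%), in replicate 2 for 13 (40.2%) and in replicate 3 for 7 (27.7%). With column totals in place of TMM, 25 members were highest in replicate 2 and 6 in replicate 1, and the shares of all genes became 38.5% and 35.8%. The median difference of replicate 2 minus replicate 1 was 0.45 on the log2 scale over the members and -0.17 over all genes, and the value over all genes was 0.09 with column totals.

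The members' differences between libraries went with GC content and with transcript length. Of the 8 tested members with at least 58% GC in the longest transcript, 7 were lowest in replicate 2, the 7 being SMARCA4, SMARCB1, SMARCD2, BCL7B, MBD3, MTA1 and RUVBL2 (6 with size factors of DESeq2 or column totals). BCL7C, at 64.3% GC the highest, was the exception. This bound was not planned in advance, and no share of all genes was computed at it. Just below it, ARID1A (57.5% GC) and SRCAP (57.4%) were highest in replicate 2. Among the 23 members of 50% GC or more, 11 were lowest in replicate 2 under TMM, against 40.2% of all genes tested at any GC content. Of the 17 members under 50% GC, 14 were highest in replicate 2 under all 3 scalings, against 39.7% of all genes in that range under TMM. Of the 23 members of 50% GC or more, 8 were under TMM, against 12.1% of all genes in that range. The count was 9 with size factors of DESeq2 and 11 with column totals. Shares of all genes by GC range were computed under TMM only. Spearman's rank correlation of GC content with the log2 difference of replicate 2 minus 1 was -0.59 over the 40 members and -0.45 over 9979 genes. For replicate 3 minus 2 it was 0.48 and 0.45, and for replicate 3 minus 1 it was weaker, -0.33 and -0.15. With the length of the longest transcript the correlation was 0.48 over members and 0.27 over all genes for replicate 2 minus 1. For replicate 3 minus 2 it was -0.57 and -0.32, and for replicate 3 minus 1 it was 0.16 and 0.06. The points share these libraries, and GC content also went with transcript length among the members (rank correlation -0.35).

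**Figure D3:**
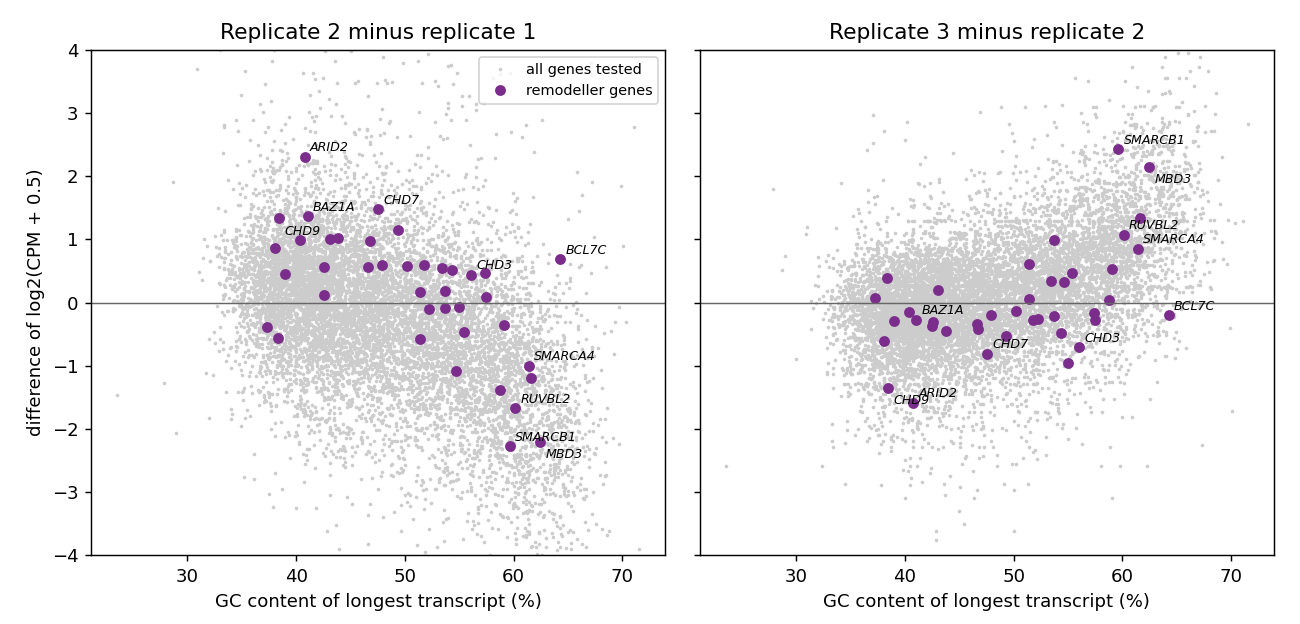
Difference of log2(CPM + 0.5) between libraries against GC content of the longest transcript (%), left for replicate 2 minus 1 and right for replicate 3 minus 2, with all genes tested in grey and the 40 tested remodeller genes in purple. GC-rich members such as MBD3 and SMARCB1 lie low on the left and high on the right, and 147 and 9 grey genes fall outside the plotted range of 4 on either side.

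Adjusting each library's size for its trend with GC content changed which members were called. It did not raise the number of members highest in replicate 1, which was 6 after it and 9 before. The share of all genes highest in each library was not computed after the adjustment. The test then called 34 of 40 members, against 60.6% of all genes, and 6 of the 34 had not passed before: ARID1A, ARID1B, PHF10, BCL7C, INO80 and RUVBL1. Of the 7 GC-rich members lowest in replicate 2, SMARCB1, MBD3 and RUVBL2 remained lowest there. SMARCA4 no longer passed (adjusted p = 0.0662), with 79.5, 102 and 91.0 adjusted CPM in replicates 1, 2 and 3, so that replicate 2 was then the highest. Nor did MBD3 (0.273), MTA1 (0.0794) or DPF2 (0.159). ARID2 kept its high replicate 2, at 11.9, 53.5 and 20.02 adjusted CPM (3.87e-21), and so did CHD7 (2.48e-12). ARID1A, even before the adjustment, became uneven after it, at 99.1, 201 and 105 adjusted CPM (4.40e-19). The part of GC content in the spread was not tested beyond this adjustment, which was chosen after the data were seen. Called in each of the 7 other fits that scaled, left out, thinned or adjusted libraries were 10 members: SMARCC1, CHD2, CHD3, CHD4, CHD7, CHD8, BPTF, BAZ1A, BAZ1B and RUVBL2. The share of all genes called in every fit was not computed, so this count has no background to be read against.

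Snf2-type motor members, grouped after their values were seen, were highest in replicate 2 in 10 of 12 tested cases (28.7% of all genes). The exceptions were SMARCA4 and EP400. With column totals 11 were highest there (38.5% of all genes). No share was computed for genes of like length or GC content. Their median longest transcript was 8283 bases, against 5038 for the other 28 tested members, of which 12 were highest in replicate 2. Median GC content was 49.8% for the motors and 52.8% for the others. On the list of other CHD and SNF2 remodellers, given below, 7 genes were tested. Of these, 5 were highest in replicate 2 and 2 in replicate 1.

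The sources used here do not say whether counting used strand. In 25 of 41 members some exon bases are also exonic on the other strand, from 0.436% of the merged bases in RUVBL2 to 42.4% in BRD7. In 7 members the overlap passes 10%: SMARCB1, BCL7C, BRD7, CHD4, SMARCA5, BAZ1A and RUVBL1. The antisense partners of members found in the table numbered 10, and 8 of them were higher in replicates 2 and 3 than in replicate 1. Their summed level was 17.6, 113 and 161 CPM in replicates 1, 2 and 3. No share over all antisense genes was computed, so this may not be particular to the members' partners. The sum leaves out protein-coding partners. The highest of those were highest in replicate 1: MYL6, opposite SMARCC2, at 506, 278 and 381 CPM, and SEC61A1, opposite RUVBL1, at 339, 166 and 223 CPM. SMIM4, opposite PBRM1, and RBMS2, opposite BAZ2A, were lowest in replicate 1. MIR762HG, opposite BCL7C, had 11.2, 39.0 and 36.8 CPM, and SMARCA5-AS1 had 0, 6 and 8 counts. Among genes without such overlap, 14 of 16 members passed the test between libraries, against 66.6% of all such genes. The part of these reads in the members' values was not tested.

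Other subunits of the same families, on a list of 58 genes, filled in the complexes. In the table were 56 of them, 53 reached 1 CPM in every library, and 36 of 49 tested passed the test between libraries, against 67.2% of all genes. Of the 49, 16 were called and highest in replicate 1 (32.1% of all genes), 12 in replicate 2 (18.0%) and 8 in replicate 3 (17.0%). Of 7 other SWI/SNF subunits, ACTB, the actin shared with the cytoskeleton, was the highest per kb at 5110.3, 1862 and 2515 CPM in replicates 1, 2 and 3, an uncertain value since near-identical actin genes and pseudogenes can share its reads, and DPF1, a DPF2 paralogue of neurons, the lowest per kb at 5, 4 and 0 counts. Those other than ACTB were low: of SMARCD3, DPF1, DPF3, SS18L1, BICRA and BICRAL none exceeded 15.0 CPM in any library. Of 10 NuRD subunits the deacetylase HDAC1 led per kb, at 237, 207 and 232 CPM, and CHD5 was lowest per kb at 8.60, 18.2 and 13 CPM, with 8 of 10 called. Of 8 other CHD and SNF2 genes BTAF1, which removes TBP from DNA, was highest per kb at 306, 378 and 348 CPM and ERCC6 lowest per kb at 3.20, 4.40 and 1.53 CPM, with 7 of 7 tested genes called.

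Of 6 other ISWI subunits, POLE3, a histone-fold subunit of CHRAC, was the highest per kb. It had 104, 150.2 and 125 CPM in replicates 1, 2 and 3. SMARCA1 was the lowest per kb, and 4 of 4 tested genes were called, against 67.2% of all genes tested. Of 25 other INO80, SRCAP and TIP60-p400 subunits, MORF4L1, a chromodomain subunit of TIP60-p400, had 157, 283 and 242 CPM, the highest per kb. MRGBP was the lowest per kb at 1.60, 1.26 and 6.14 CPM. Of these other subunits 15 of 24 tested were called, against 67.2% of all genes tested. Their medians, 22.6, 17.6 and 21.5 CPM, lay below the 139, 131 and 117 CPM of the 5 members of that family, whose merged exons are longer. Per kb of merged exons the medians were 4.13, 3.19 and 4.22 for the other subunits and 7.44, 9.61 and 8.53 for the members.

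**Figure D4:**
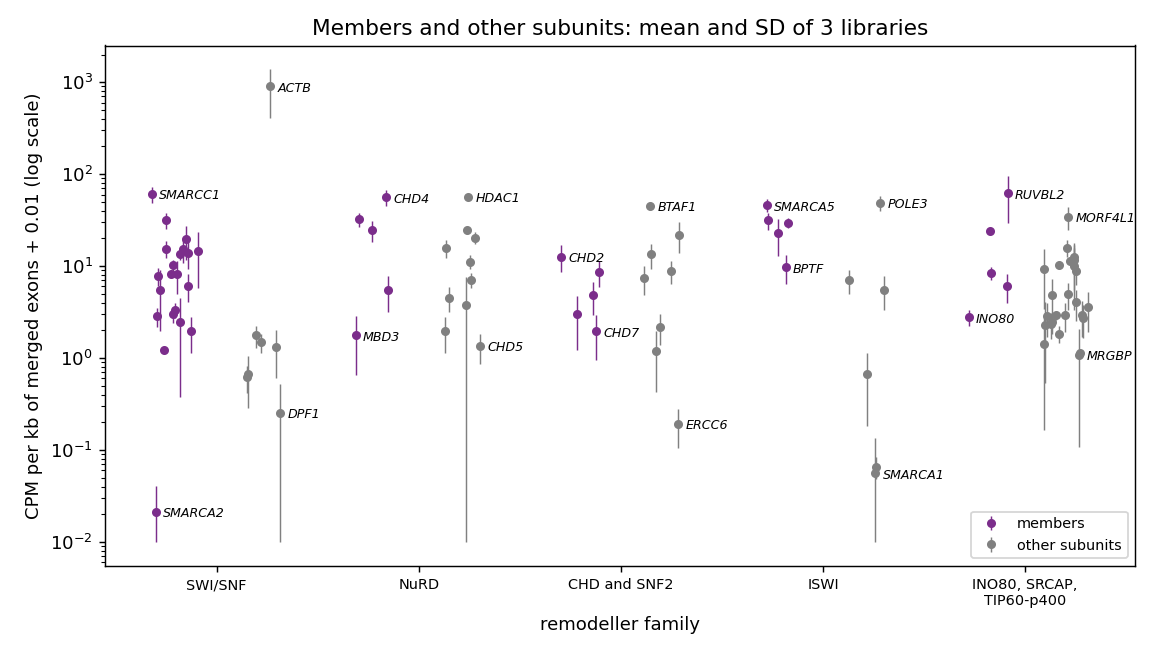
Mean CPM per kb of merged exons plus 0.01 (log scale) with the SD of 3 libraries, for members (purple) and other subunits (grey) of each remodeller family, with the highest and lowest gene of each column named. SMARCA2 and SMARCA1 lie far below the other genes of SWI/SNF and ISWI, except CECR2, which lies beside SMARCA1.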

How the data were processed

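RNA sequencing of 3 OCI-Ly10 libraries (MZ1, 6 h) was analysed from 2 tables. The first holds raw read counts per gene as deposited. The second holds log2 CPM values computed by the authors, used as an alternative only. The submitters' processing notes name STAR, edgeR and hg38, per the labels. The sources used here do not give the counting tool, strand setting or annotation. Per the labels' protocols, RNA was extracted with Trizol and libraries made with an Illumina TruSeq kit.

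From the counts, CPM were computed with TMM factors (0.914, 1.10 and 0.991; edgeR 4.0.16, R 4.3.3). Symbols, exons, transcript lengths and GC content came from GENCODE 29, by unversioned gene ID (15668 of 15808 found). Genes averaging 10 counts or more were tested between libraries with a chi-square test (Poisson, scipy 1.17.1), with Benjamini-Hochberg adjustment across all genes tested at 0.05, after a test on simulated data. Log2 values use a pseudocount of 0.5 CPM. Intervals and 3-count floors cover counting error only.

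All members are named, with the highest and lowest gene of each other list. The members, lists and pairs were chosen with earlier results of these data known. Alternatives were size factors of DESeq2 1.42.0, column totals, the deposited log2 values, other filters, lengths and pseudocounts, thinning to equal depth, and leaving out each library. The adjustment for GC content and the APPRIS lengths were added after the data were seen.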

Additional observations from a re-analysis of the deposited data

How the results depend on the processing

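With 1 group of 3 libraries, these tests speak of the libraries at hand, and the 2 shallower ones set the precision: a gene needs 3 counts, or 2.30 CPM, to clear the floor in replicate 3. Of the 40 members tested, 32 passed the chi-square test with Benjamini-Hochberg adjustment, 33 with size factors of DESeq2 (67.0% of all genes), 35 with column totals (67.6%), 30 after thinning to equal depth (62.7%) and 34 with sizes adjusted for GC content (60.6%), the last added after the data were seen. Restricted to genes with no exon overlap on the other strand, 14 of 16 members and 3795 of 5699 genes (66.6%) passed, and 3 members were highest in replicate 1, lower counts that follow from the fewer genes tested. Leaving out 1 library gave 25 of 40 members and 2854 of 8447 genes without replicate 1, 18 members and 4700 of 10388 genes without replicate 2, and 30 members and 5890 of 10488 genes without replicate 3, against 6728 of 10016 genes with all 3. The members highest in replicate 1, 9 in all, numbered 14 to 15 when replicate 2 or 3 was left out, where 1 rival library remained.

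With no length correction the mean log2 ratio changed sign for BCL7A to BCL7B (0.0618), BCL7A to BCL7C (0.00100) and DPF2 to PHF10 (0.0894), since it then compares reads and not reads per base. The other 15 pairs kept the sign of their mean under every alternative run.

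Group medians, as log2 CPM per kb of merged exons, were 2.55 for the SWI/SNF core, 3.20 for form-specific genes, 4.50 for NuRD, 2.20 for other CHD genes, 4.75 for ISWI and 3.09 for the INO80 family. In that order they were 3.82, 3.85, 4.93, 3.39, 5.05 and 3.42 with the longest transcript, and 3.90, 4.16, 4.93, 3.44, 5.05 and 3.42 with the APPRIS principal transcript, because shorter lengths raise every value. The deposited log2 CPM gave 2.99, 3.64, 4.94, 2.64, 5.19 and 3.53 in the same order. Each of these was above the main value, and the rank of the groups was unchanged. The mean of log2 values gave 2.78 for form-specific genes, 3.67 for NuRD and 3.50 for the INO80 family. The cause of these shifts was not tested. Without 1 library the form-specific median ran from 3.14 to 3.30. No paired analysis was possible because all libraries belong to 1 group.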
